A study of Mus musculus with 6 samples.

Results

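Syndecans and glypicans are the core proteins that carry heparan sulfate on the cell surface. The deposited counts were searched for the gene names *Sdc1*, *Sdc2*, *Sdc3* and *Sdc4* (syndecans) and *Gpc1*, *Gpc2*, *Gpc3*, *Gpc4* and *Gpc6* (glypicans), and all 9 were found among 55809 genes. HC11, a line of mouse mammary epithelial cells used in the study as a luminal line, was cultured either in medium with BMP7 (BMP7, 3 libraries) or in the same kind of medium without it (Ctrl, 3 libraries), and poly(A) RNA was sequenced. The study's methods describe HC11 cells that received 50 ng per mL BMP7 for 30 min or 6 h after 16 h of starvation, without naming which of these was sequenced. HC11 is a single line, and nothing in the labels says whether the libraries of a group came from separate cultures, so the p-values given here measure the spread between these libraries.

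Syndecans span the membrane with a short conserved cytoplasmic tail and carry heparan sulfate near the outer end of the ectodomain. Some also carry chondroitin sulfate. Glypicans are held to the membrane by a glycosylphosphatidylinositol (GPI) anchor and carry heparan sulfate close to it. The sulfated chains bind FGFs, BMPs and their antagonists and Wnt proteins, so that these proteoglycans act as co-receptors and as a store of ligand. In the mammary epithelium syndecan-1 is known for its place on the basolateral surface and for its part in Wnt responses, and syndecan-4 for its place in focal adhesions.

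Between 14607938 and 23748970 fragments per library were counted, with the fewest in BMP7 library 1. The BMP7 libraries are named by the numbers of their columns (1, 3 and 4), which differ from those of the labels. *Id1*, a direct target of BMP signaling, was measured at 7.61, 8.21 and 7.87 CPM (counts scaled to library size after normalization by the trimmed mean of M values) in Ctrl and at 162, 158 and 142 CPM with BMP7. Of 12 epithelial markers, 11 passed the expression filter (not *Krt19*). The 12 summed to 2182 to 2211 CPM in Ctrl and 1809 to 1865 CPM with BMP7. *Epcam*, *Cdh1*, *Krt18* and *Cldn3* were lower and *Ovol1* was higher (median log2 fold change of the 11 tested -0.27). Of 10 basal and myoepithelial markers 9 were tested, of which *Krt14*, *Trp63* and *Oxtr* were higher and none lower (median log2 fold change -0.03). The 10 markers summed to 6446 to 6588 CPM in Ctrl and 7250 to 8592 CPM with BMP7. Without *Krt14*, the most abundant, the other 9 summed to 2956 to 3053 CPM in Ctrl and 2966 to 3334 CPM with BMP7. Most of that sum was *Krt5*. In Ctrl the basal keratin genes *Krt14* and *Krt5* were at 3489 and 2643 CPM. The genes by which the study marks luminal cells, *Krt8* and *Krt18*, were at 63.2 and 49.5 CPM there. BMP7 libraries 3 and 4 stood apart from BMP7 library 1 in genes of other cell types. The 12 adipocyte markers summed to 90.9 and 78.7 CPM in BMP7 libraries 3 and 4, to 34.8 CPM in BMP7 library 1 and to 22.3 to 33.1 CPM in Ctrl. The 12 macrophage markers summed to 31.7 and 30.4 CPM in BMP7 libraries 3 and 4, to 64.1 CPM in BMP7 library 1 and to 61.8 to 66.4 CPM in Ctrl. Of the 8 tested, *Lyz2*, *Cd14* and *Itgam* were lower and none was called higher (median log2 fold change -1.02). *Cd68* went the other way without being called, from 10.9 to 11.6 CPM in Ctrl to 12.4 to 15.6 CPM with BMP7. The 12 fibroblast markers were led by *Postn* (2226 CPM in Ctrl and 3506 CPM with BMP7), and the other 11 summed to 116 to 127 CPM in Ctrl and 103 to 124 CPM with BMP7, with *Thy1*, *Lum* and *Mfap5* below the expression filter. Of the 9 fibroblast markers tested, *Postn*, *Col1a2*, *Col3a1*, *Dcn* and *Dpt* were higher and *Col1a1*, which fell from 71.1 to 53.2 CPM, was lower (median log2 fold change 0.65). *Dcn* was at 0.737 to 1.73 CPM in Ctrl, 1.74 CPM in BMP7 library 1 and 4.44 and 4.90 CPM in BMP7 libraries 3 and 4, and *Dpt* was at 0.279 CPM in BMP7 library 1, within its Ctrl range, and at 2.40 and 1.98 CPM in BMP7 libraries 3 and 4. Of 10 endothelial markers only *Pecam1* passed the filter. It rose from 14.4 to 24.6 CPM (log2 fold change 0.77, edgeR adjusted p = 3.32e-05), and the other 9 summed to at most 1.38 CPM in any library.

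Among the syndecans, BMP7 raised 2 members and lowered 1. Among the glypicans 1 was higher and 1 lower, with calls that depended on single libraries. *Sdc3* more than doubled, *Sdc1* and *Gpc6* rose by smaller amounts, and *Sdc4* and *Gpc1* fell. Of the 8 members that could be tested, 3 were higher and 2 lower in the quasi-likelihood test of edgeR, with p-values adjusted by Benjamini-Hochberg over 15733 genes and called where the adjusted p was under 0.05 and the change exceeded 1.2-fold. At the same thresholds 11.4% of all genes tested were called, 5.99% as higher and 5.38% as lower. The calls of *Sdc1*, *Sdc3* and *Sdc4* held in all 6 fits that each left out 1 library. That of *Gpc1* held in 4 of these fits and that of *Gpc6* in 2. *Sdc3* was the only member past a threshold of 1.5-fold, where 4.96% of all genes tested were called. The libraries of the groups did not overlap in level for 7 of the 8 members (exact permutation test for each, two-sided, with p = 0.1 as the lowest value 3 and 3 libraries can give), as was the case for 29.8% of all genes tested. *Gpc3* was the member whose groups overlapped. The median log2 fold change of the 8 members was 0.0014, beside -0.0062 over all genes tested.

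**Figure D1:**
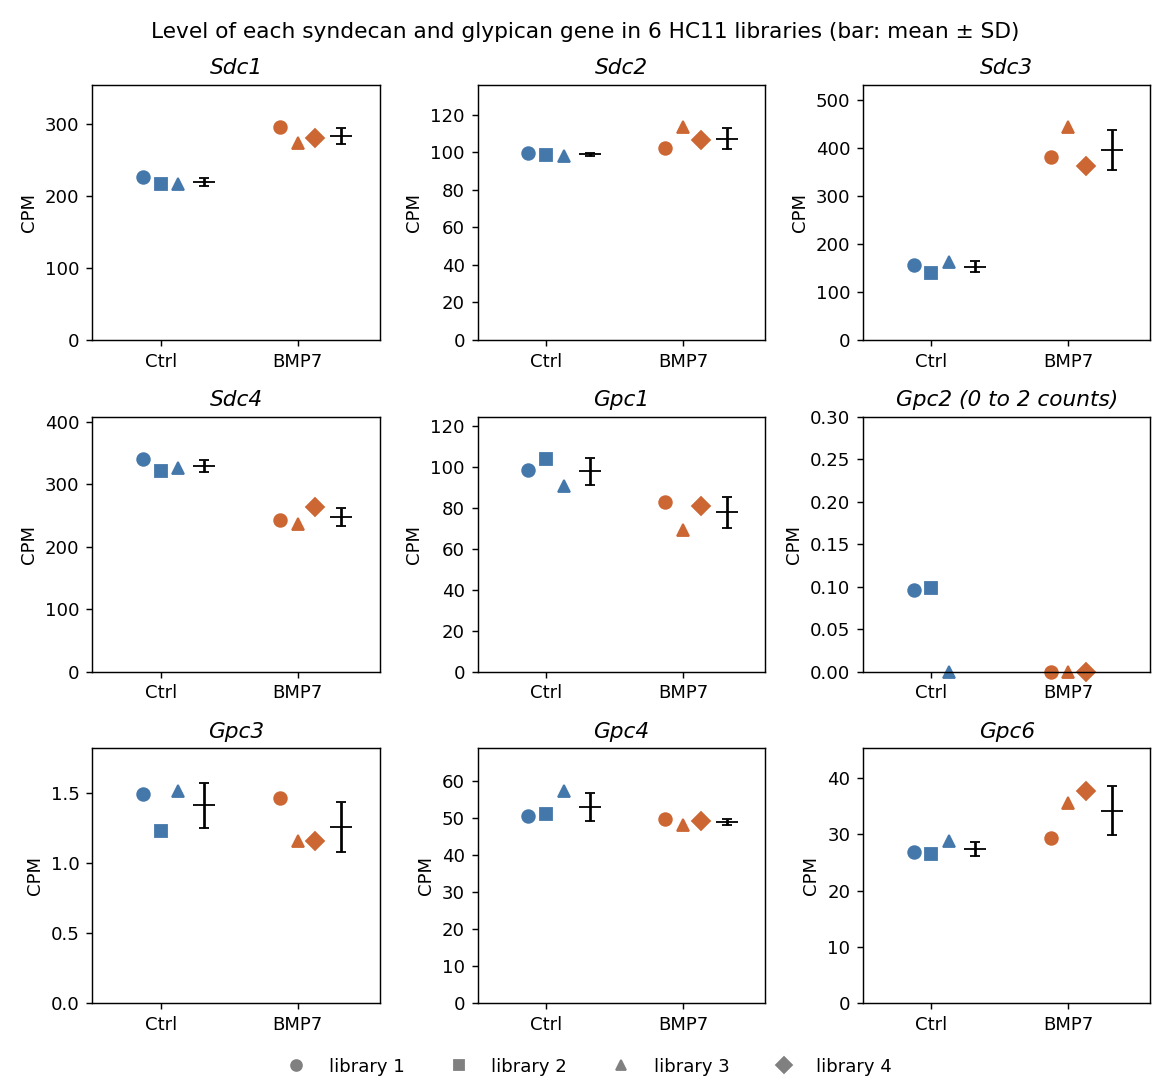
Level of each of the 9 genes in CPM (vertical axes from 0, a scale for each gene) in the 3 Ctrl libraries (blue) and the 3 BMP7 libraries (orange), with marker shapes for library numbers and a black bar for the mean and SD, which is left out for *Gpc2*. The BMP7 points of *Sdc3* lie between 363 and 442 CPM and the Ctrl points between 139.95 and 161 CPM, and *Sdc4* shows the opposite order.

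*Sdc3* encodes syndecan-3, the longest syndecan core protein, known mostly from neurons and developing limb and muscle. It lies on chromosome 4 from 130519848 to 130553630 (plus strand, the mm39 annotation of the deposited counts). *Sdc3* was measured at 157, 139.95 and 161 CPM in Ctrl libraries 1, 2 and 3. In BMP7 libraries 1, 3 and 4 it was measured at 379.6, 442 and 363 CPM. Every BMP7 library was above every Ctrl library, and the lowest of them was more than double the highest Ctrl value. The fold change was 2.59 (log2 fold change 1.37, standard error 0.08, adjusted p = 3.41e-09, edgeR's quasi-likelihood test), which ranked 173 from the top by log2 fold change and 39 by p among the genes tested. In all 12 alternative fits, BMP7 library 1 alone against Ctrl among them, *Sdc3* remained past the thresholds, with log2 fold changes from 1.29 to 1.43. Of its exon length, 7.73% overlaps the antisense genes Gm12970 and Gm26716, which had 0 to 4 counts in each library.

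*Sdc4* encodes syndecan-4, the focal adhesion syndecan that binds protein kinase C alpha. It lies on chromosome 2 from 164266167 to 164285807 (minus strand) and shares no exon base with another gene. *Sdc4* was measured at 340.2, 321 and 327 CPM in Ctrl and at 242, 236 and 264 CPM in BMP7 libraries 1, 3 and 4. All BMP7 libraries were below all Ctrl libraries. The log2 fold change was -0.41 (standard error 0.06, edgeR adjusted p = 0.000197), and between -0.46 and -0.38 over the 12 alternative fits, each past the thresholds.

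*Sdc1* encodes syndecan-1, the main syndecan of simple and stratified epithelia. It lies on chromosome 12 from 8821323 to 8843715 (plus strand). *Sdc1* was measured at 226, 217 and 216 CPM in Ctrl and at 295, 273 and 279.6 CPM in BMP7 libraries 1, 3 and 4, with no overlap between the groups. It rose by 0.36 on the log2 scale (standard error 0.06, edgeR adjusted p = 0.000408), and stayed past the thresholds in all 12 alternative fits. *Sdc2*, which encodes a syndecan known from mesenchymal cells and endothelium, lies on chromosome 15 from 32920869 to 33035081. Its values were 99.8, 98.7 and 98.1 CPM in Ctrl and 102, 113 and 106 CPM with BMP7. The values did not overlap, but the log2 fold change of 0.12 did not pass the test (adjusted p = 0.234, edgeR), with a 95% interval of -0.01 to 0.25.

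The promoters of *Sdc3* and *Sdc4*, the members with the largest rise and the largest fall, are shown here as 250 bases before and 50 bases after the start that RefSeq gives on GRCm38.p6. They are not on the coordinates of the deposited counts. Of the 9 members, 6 have an entry in this promoter set. Capitals mark the letters GGCGCC and GGAGCC (searched on both strands), which are known as GC-rich letters bound by Smad1 and Smad5. *Sdc3* is at chr4:130792287-130792586 (plus strand, 77.7% G and C) and *Sdc4* at chr2:164443139-164443438 (minus strand, 67.7% G and C), both written 5′ to 3′ on the strand of the gene.
Sdc3: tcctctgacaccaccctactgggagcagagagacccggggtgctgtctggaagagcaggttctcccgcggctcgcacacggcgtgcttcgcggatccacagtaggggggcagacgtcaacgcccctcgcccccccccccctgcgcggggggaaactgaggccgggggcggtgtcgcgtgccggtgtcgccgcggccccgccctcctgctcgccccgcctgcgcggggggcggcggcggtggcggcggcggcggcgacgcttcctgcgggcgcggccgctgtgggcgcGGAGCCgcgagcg
Sdc4: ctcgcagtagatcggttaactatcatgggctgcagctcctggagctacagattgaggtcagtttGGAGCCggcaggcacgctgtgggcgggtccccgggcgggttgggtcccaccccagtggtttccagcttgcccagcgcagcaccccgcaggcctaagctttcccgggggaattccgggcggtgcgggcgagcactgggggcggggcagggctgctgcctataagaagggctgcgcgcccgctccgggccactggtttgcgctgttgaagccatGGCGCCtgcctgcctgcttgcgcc
The *Sdc3* window held GGAGCC once, 38 bases after the start, and did not hold GGCGCC. The *Sdc4* window held both letters once, GGAGCC 186 bases before the start and GGCGCC 27 bases after it. In the *Sdc1* window neither was found. Among the promoters of members that were not called, *Gpc4* held GGCGCC and *Gpc2* and *Gpc3* held GGAGCC. Of 32544 promoters of the same length, 11.9% held GGCGCC and 31.0% held GGAGCC. The core of the Smad-binding element, CAGAC (either strand, in 49.5% of all promoters), stood at 2 places in the *Sdc3* window and at 1 in that of *Sdc1*, and not in that of *Sdc4*. These matches describe the letters of the windows, and binding was not measured here.

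Per length, the make-up of the syndecans shifted. Levels between genes are compared here in RPKM (CPM divided by the deposited exon length in kilobases). *Sdc4* made up 54.0%, 53.8% and 53.5% of the summed syndecan RPKM in Ctrl, and 35.9%, 34.3% and 38.7% in BMP7 libraries 1, 3 and 4. The share of *Sdc3* was 10.6%, 9.97% and 11.2% in Ctrl and 23.9%, 27.3% and 22.6% with BMP7. Thus *Sdc3* stood at 0.197 ± 0.0122 of the RPKM of *Sdc4* in Ctrl and at 0.682 ± 0.106 with BMP7 (SD, n = 3 each). Summed over the 4 syndecans, the level was 234 to 247 RPKM in Ctrl and 265 to 270.4 RPKM with BMP7. The sum thus differed far less than the shares of *Sdc3* and *Sdc4*. The share of *Sdc1* was 23.7% to 24.3% in Ctrl and 26.5% to 29.2% with BMP7, and that of *Sdc2* lay between 10.9% and 11.9% in all libraries.

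**Figure D2:**
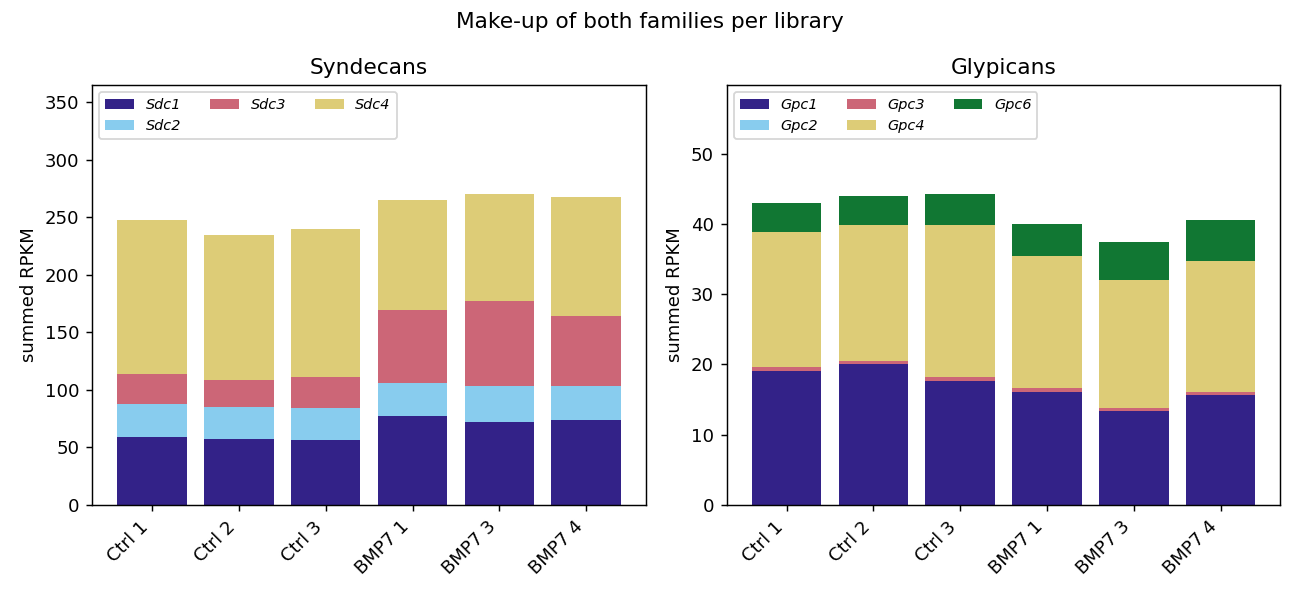
Stacked bars of RPKM for the 4 syndecans (left) and the 5 glypicans (right) in each library, with a vertical axis from 0 in each panel. The *Sdc3* segment grows from 23.4 to 26.9 RPKM in Ctrl to 60.6 to 73.8 RPKM with BMP7 while that of *Sdc4* shrinks, and *Gpc1* and *Gpc4* fill most of the glypican bars.

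In order of RPKM, the Ctrl libraries had *Sdc4* (129 ± 3.85, SD, n = 3), *Sdc1* (57.7 ± 1.47), *Sdc2* (28.0 ± 0.241), *Sdc3* (25.5 ± 1.85), *Gpc4* (20.0 ± 1.41), *Gpc1* (18.9 ± 1.26), *Gpc6* (4.26 ± 0.198), *Gpc3* (0.525 ± 0.0593) and *Gpc2*. The ranges of *Gpc4* and *Gpc1* overlapped, and those of all other neighbours in the order did not. With BMP7, *Sdc3* moved from rank 4 to rank 3. *Sdc4* (97.2 ± 5.69 RPKM), *Sdc1* (74.2 ± 2.92) and *Sdc3* (65.9 ± 6.97) then led, followed by *Sdc2* (30.4 ± 1.59) and by the glypicans in the order they had in Ctrl. The ranges of *Sdc1* and *Sdc3* overlapped with BMP7. Without the division by exon length *Sdc3* ranked 3 in Ctrl and 1 with BMP7, so its place rests in part on its deposited exon length of 5989 bases, against 2547 for *Sdc4*. RPKM also divides by bases shared with other genes, where fragments were counted for neither gene. These are 7.73% of the exon length of *Sdc3* and 18.9% of that of *Gpc1*. The order of *Sdc2* and *Sdc3* in Ctrl, and that of *Gpc4* and *Gpc1*, is uncertain for this reason.

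Among the glypicans the changes were smaller. *Gpc1*, on chromosome 1 from 92759367 to 92788501, encodes glypican-1, a common co-receptor for FGF2. *Gpc1* was measured at 98.6, 104 and 90.7 CPM in Ctrl and at 82.9, 69.1 and 80.9 CPM in BMP7 libraries 1, 3 and 4. The lowest value was that of BMP7 library 3, and the groups did not overlap. Its log2 fold change was -0.33 (standard error 0.08, adjusted p = 0.00712, edgeR). The call was lost without Ctrl library 2 (log2 fold change -0.29, adjusted p = 0.0617, edgeR) and without BMP7 library 3 (-0.25, under the fold threshold), and with BMP7 library 1 alone against Ctrl (-0.23, adjusted p = 0.137, edgeR). Of the *Gpc1* exon length, 18.9% overlaps the antisense gene *Ankmy1*, which had at most 11 counts in any library, and fragments in that overlap were counted for neither gene.

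*Gpc6*, on chromosome 14 from 117162727 to 118213956, encodes glypican-6, a glypican of mesenchyme known to act in Hedgehog signaling at the growth plate. It was measured at 26.8, 26.5 and 28.9 CPM in Ctrl. In BMP7 libraries 1, 3 and 4 the values were 29.3, 35.5 and 37.7 CPM. BMP7 library 1 lay just above the highest Ctrl library, and BMP7 libraries 3 and 4 lay well above it. The log2 fold change was 0.32 (standard error 0.09, adjusted p = 0.0277, edgeR). The call was lost without Ctrl library 1 or 2 and without BMP7 library 3 or 4, where the adjusted p from edgeR was at most 0.119. BMP7 library 1 alone against Ctrl gave a log2 fold change of 0.10 (adjusted p = 0.666, edgeR). BMP7 libraries 3 and 4 are also those with the high adipocyte and low macrophage sums. The fibroblast markers *Dcn* and *Dpt* were high there, but *Col1a1* was lower with BMP7. The 11 fibroblast markers without *Postn* summed to 124 and 121 CPM in BMP7 libraries 3 and 4. Their sum was 103 CPM in BMP7 library 1 and 116 to 127 CPM in Ctrl. The part of other cells in the *Gpc6* value was not tested. In bulk RNA, more cells that express a gene and more of its RNA per cell cannot be told apart.

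*Gpc4*, on the X chromosome from 51141898 to 51254129, encodes a glypican of embryonic and epithelial tissues that binds Wnt and FGF ligands. Its mean RPKM was the highest of the glypicans in both groups, but its range overlapped that of *Gpc1* in Ctrl. In Ctrl library 2 *Gpc1* was higher (20.1 against 19.3 RPKM). The RPKM of *Gpc1* also divides by bases whose fragments were not counted, which lowers it, so the order of *Gpc4* and *Gpc1* is uncertain. *Gpc4* was measured at 50.8, 51.2 and 57.4 CPM in Ctrl and at 49.8, 48.1 and 49.3 CPM with BMP7. The log2 fold change of -0.12 did not pass the test (adjusted p = 0.322, edgeR), with a 95% interval of -0.26 to 0.03. *Gpc3* encodes an inhibitor of Hedgehog signaling and of growth, and neighbours *Gpc4* (51361303 to 51702827), with 107173 bases and no other gene of the annotation between them. *Gpc3* had 31, 25 and 31 counts in Ctrl and 21, 26 and 21 with BMP7, or 1.16 to 1.52 CPM over all libraries. Its log2 fold change of -0.18 had a 95% interval of -0.81 to 0.45 (adjusted p = 0.762, edgeR), so that at this depth a change of the size seen in *Gpc1* or *Gpc6* was not detectable for it. *Gpc2*, known from developing neurons, had 2, 2 and 0 counts in Ctrl and 0 in each BMP7 library, at or under the floor of 3 counts per library (0.133 to 0.209 CPM), and was not tested. Gm43720 shares 55.6% of the *Gpc2* exon length on the same strand, where fragments were counted for neither gene, so the level of *Gpc2* is uncertain. *Gpc5*, which lies 400135 bases from *Gpc6* on the same chromosome with 1 gene between them, had 0 counts in every library.

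*Gpc1* and *Gpc4* together made up most of the glypican RPKM. The shares given for *Gpc1* are lowered by the 18.9% of its exon length whose fragments were not counted. The share of *Gpc1* was 44.4%, 45.6% and 39.7% in Ctrl and 40.2%, 35.7% and 38.6% with BMP7, and that of *Gpc4* lay between 43.9% and 48.9% in all libraries. The share of *Gpc6* was 9.39% to 10.1% in Ctrl and 11.4%, 14.7% and 14.5% in BMP7 libraries 1, 3 and 4. Summed glypican RPKM was 43.0 to 44.3 in Ctrl and 37.5 to 40.6 with BMP7. The syndecan sum was 5.33 to 5.75 times the glypican sum in Ctrl and 6.60 to 7.21 times with BMP7.

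**Figure D3:**
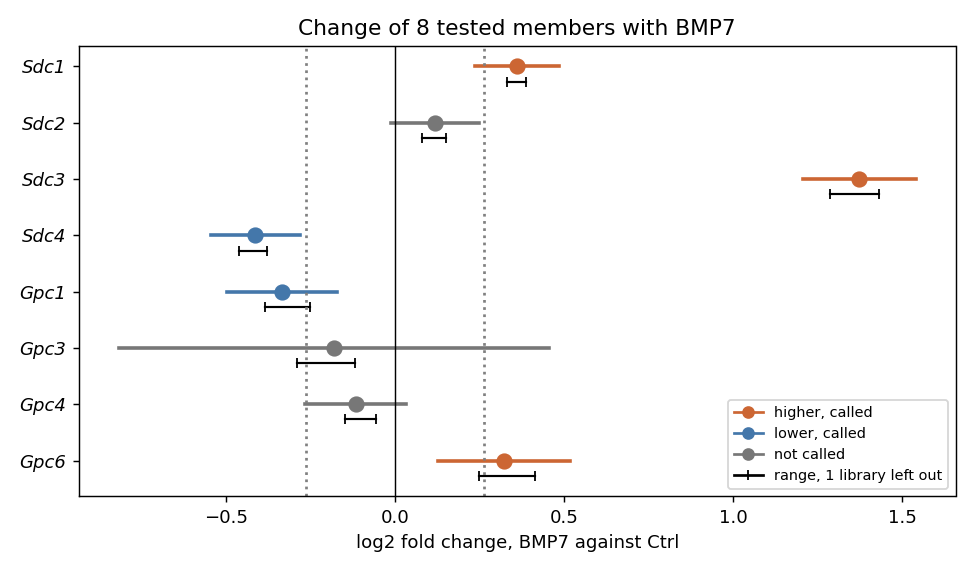
Log2 fold change of BMP7 against Ctrl for the 8 tested members (points) with the 95% interval (coloured lines) and the range over 6 fits that each left out 1 library (black lines), with dotted lines at a fold change of 1.2. *Sdc3* at 1.37 stands apart from the others, which lie between -0.41 and 0.36, and the interval of *Gpc3* is the widest.

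Genes that build, edit or degrade heparan sulfate (HS) and the related chondroitin sulfate, shed or release the core proteins, encode other proteoglycans or bind the syndecan tail inside the cell were taken from 7 lists with 101 genes, of which 82 were tested. BMP7 raised 13 and lowered 5 of them (22%, beside 11.4% of all genes), and their median log2 fold change was -0.0151, close to that of all genes tested. The lists were chosen with earlier results of these data known, so these shares only describe them. In single lists, which are small with 7 to 15 tested genes each, 8.33% to 30.8% were called. Among 12 tested genes of the linker and of chain polymerisation, 1 was higher and none lower. It was *Xylt1*, which encodes a xylosyltransferase that starts the chain on the core protein. *Xylt1* was measured at 45.5, 38.8 and 48.8 CPM in Ctrl and 82.7, 89.8 and 89.4 CPM with BMP7, a log2 fold change of 0.98 (adjusted p = 2.58e-07, edgeR). The log2 fold change of *Xylt2*, its paralog, was -0.11 (adjusted p = 0.475, edgeR). The HS polymerase genes *Ext1* and *Ext2* had log2 fold changes of 0.05 and -0.02, with 95% intervals of -0.09 to 0.19 and -0.14 to 0.10.

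Of 15 tested sulfation and epimerisation genes 3 were higher and none lower. *Papss2* encodes an enzyme that makes the sulfate donor PAPS, and rose from 4.18 to 6.50 CPM in Ctrl to 16.6 to 19.6 CPM with BMP7 (log2 fold change 1.86, adjusted p = 2.16e-07, edgeR). *Papss1*, the other PAPS synthase gene, had a log2 fold change of -0.04. *Hs3st3b1* encodes a sulfotransferase that adds the rare 3-O-sulfate, and rose from 11.4 to 14.4 CPM to 27.9 to 32.6 CPM (log2 fold change 1.24, adjusted p = 3.27e-07, edgeR). *Hs2st1*, the 2-O-sulfotransferase gene, rose by 0.30 (adjusted p = 0.00416, edgeR) and fell just under the fold threshold without Ctrl library 3 (0.26). The N-sulfotransferase gene *Ndst1* had a log2 fold change of -0.12 (95% interval -0.25 to 0.02).

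Of 11 tested genes of HS editing and degradation 1 was higher and 1 lower. The lysosomal iduronate sulfatase gene *Ids* rose by 0.55 on the log2 scale (adjusted p = 1.17e-05, edgeR), and the sulfamidase gene *Sgsh* fell by 0.32 (adjusted p = 0.0216, edgeR), a call held in 3 of 6 fits that each left out 1 library. It was lost without Ctrl library 2, Ctrl library 3 or BMP7 library 1. The genes of the extracellular endosulfatases, which remove 6-O-sulfate at the cell surface, did not pass the test. *Sulf2* was measured at 296 to 330.1 CPM in Ctrl and 292 to 312 CPM with BMP7, and *Sulf1* at 5.04 to 6.19 CPM and 3.86 to 4.67 CPM.

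Among 13 tested genes of shedding and release 3 were higher and 1 lower. *Notum* encodes a secreted hydrolase first described as a releaser of glypicans and known to remove the lipid of Wnt proteins. *Notum* was measured at 4.29, 4.18 and 3.62 CPM in Ctrl and 15.6, 12.98 and 11.8 CPM in BMP7 libraries 1, 3 and 4 (log2 fold change 1.73, adjusted p = 3.77e-07, edgeR). *Adam10*, the gene of a metalloproteinase that sheds ectodomains, rose by 0.54 (adjusted p = 1.19e-05, edgeR) and *Pcsk6*, a proprotein convertase gene, by 0.61 (adjusted p = 4.5e-05, edgeR). *Gdpd5*, the gene of an enzyme that cleaves GPI anchors, fell by 0.46 on the log2 scale (adjusted p = 0.00329, edgeR). These 4 calls held in all 6 fits that each left out 1 library. *Furin*, *Adam17* and *Mmp14* had log2 fold changes of 0.04, -0.03 and -0.01. *Mmp9* was not called, with a log2 fold change of -1.01 (adjusted p = 0.0888, edgeR). It was measured at 3.08 to 3.47 CPM in Ctrl, 3.42 CPM in BMP7 library 1, and 1.07 and 0.771 CPM in BMP7 libraries 3 and 4.

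**Figure D4:**
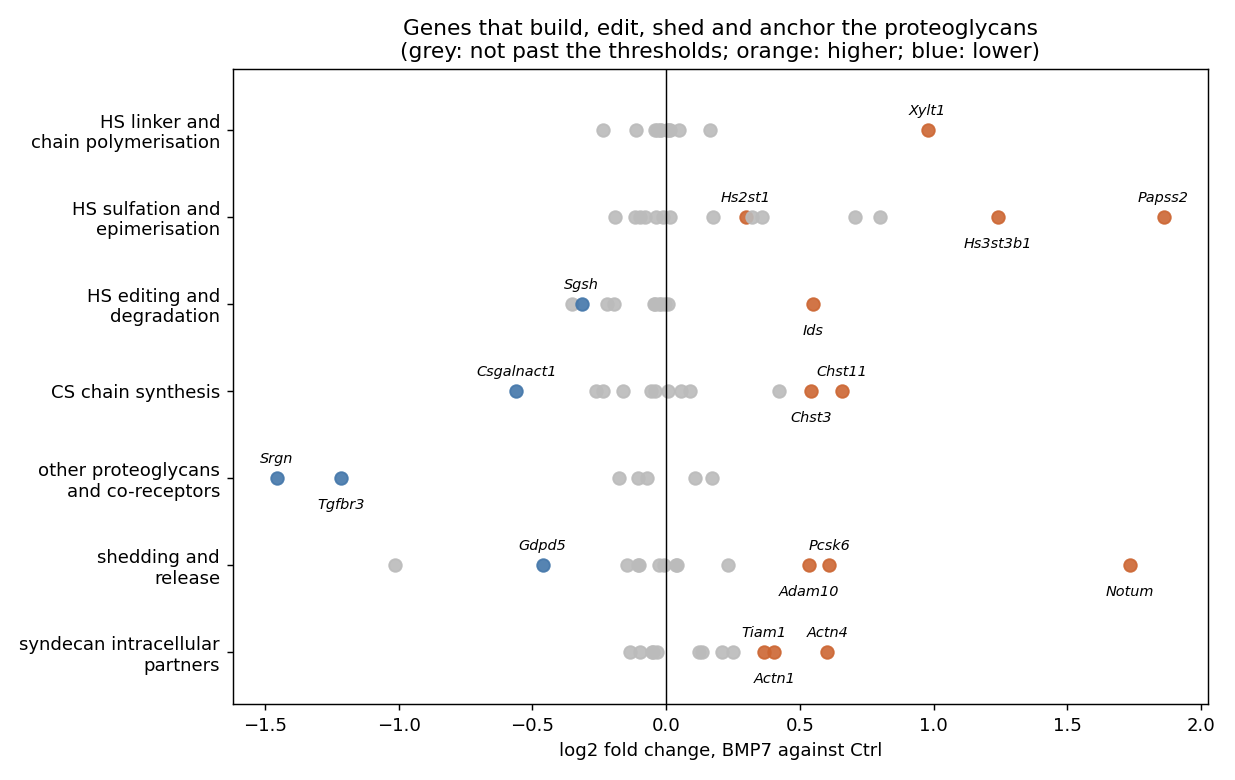
Log2 fold change of BMP7 against Ctrl for the 82 tested genes of 7 lists (rows), with the genes past the thresholds named and coloured (orange higher, blue lower). Most genes lie near 0, and *Papss2*, *Notum*, *Hs3st3b1* and *Xylt1* lie farthest to the right.

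Of 12 tested intracellular partners of syndecans 3 were higher and none lower. *Actn4* and *Actn1* encode alpha-actinins, which link syndecan-4 to actin, and rose by 0.60 (adjusted p = 2.6e-06, edgeR) and 0.40 (adjusted p = 0.000877, edgeR) on the log2 scale. *Tiam1*, the gene of a Rac exchange factor that binds syndecans, rose by 0.36 (adjusted p = 0.000885, edgeR), and its adjusted p was 0.0507 with BMP7 library 1 alone against Ctrl. *Sdcbp*, the gene of syntenin, which binds the syndecan tail, had a log2 fold change of -0.10 (95% interval -0.22 to 0.03). Of 7 tested other proteoglycans and co-receptors none was higher and 2 were lower. *Tgfbr3* encodes betaglycan, a transmembrane proteoglycan that binds TGF-beta, inhibin and BMPs. It was measured at 3.52, 5.11 and 4.99 CPM in Ctrl and 1.32, 2.44 and 1.93 CPM in BMP7 libraries 1, 3 and 4 (log2 fold change -1.22, adjusted p = 0.00265, edgeR). *Srgn*, which encodes the granule proteoglycan of blood cells, was measured at 2.31 to 3.37 CPM in Ctrl, 2.02 CPM in BMP7 library 1, and 0.667 and 0.551 CPM in BMP7 libraries 3 and 4, the libraries with the low macrophage sums. Its log2 fold change of -1.46 (adjusted p = 0.0165, edgeR) was -0.46 with BMP7 library 1 alone (adjusted p = 0.489, edgeR), and the call was lost without Ctrl library 1, BMP7 library 3 or BMP7 library 4. The part of other cells in it was not tested. The matrix proteoglycan genes *Hspg2* and *Agrn* had log2 fold changes of -0.07 and 0.17.

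Across the 6 libraries, *Gse1* and *Col6a2* were among the 3 genes whose log2 CPM followed that of *Sdc3* most closely, each with a Pearson correlation of 0.999. Their own log2 fold changes were 1.33 and 1.73. For *Gpc1*, the called glypican with the largest change, they were *Dtwd2* (0.996), *Rpa3* (0.994) and *Ntpcr* (0.993). These values describe 6 points that fall into 2 conditions, and 1000 genes (6.36%) had a correlation above 0.9 with *Sdc3*. With *Gpc1*, 481 genes (3.06%) had a correlation above 0.9.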

How the data were processed

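RNA of HC11 cells cultured with or without BMP7 was sequenced as read pairs (3 libraries each). The authors aligned the pairs with subjunc (Subread 2.0.3) and counted fragments per gene name on exons with featureCounts (2.0.1 per the file header), and the counts were deposited without normalization, together with the summed exon length of each gene. The reads were aligned to mm10 by the methods, whereas the header names an mm39 annotation, whose coordinates are given here. Strand was not used, and fragments of several places or genes were not counted.

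Counts were analysed in R 4.3.3 with edgeR 4.0.16 (expression filter, 15733 genes; TMM; quasi-likelihood test, 4 residual degrees of freedom; Benjamini-Hochberg adjustment). Calls needed an adjusted p under 0.05 and a change above 1.2-fold. Standard errors were obtained by dividing each log2 fold change by the root of its F statistic. Permutation tests used log2 CPM with a prior count of 2. Alternatives were DESeq2 1.42.0, other scalings, filters and thresholds, leaving out each library, and BMP7 library 1 alone. The tests were tested on simulated data. Copies were searched with BLAST 2.17.0 in GENCODE vM21 transcripts (95% identity over 100 bases), which matched 3.40% of *Sdc2* to Gm32618 and otherwise, for *Sdc3*, *Gpc1* and *Gpc2*, the overlapping genes. Promoter sequences are those of RefSeq (GRCm38.p6).

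Named were the 9 members, *Id1*, every called gene of the 7 pathway lists, a few key genes of HS synthesis, and the 3 genes most like a called member, 1 of which is not reported here. The other named genes were picked with their values in view. The members and lists were chosen with earlier results of these data known. Depth was 14607938 to 23748970 counts per library, so counting error is small for all members but *Gpc2* and *Gpc3*. Libraries of a group differed by more than counting noise (chi-square per degree of freedom 5.31 to 12.9).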

Additional observations from a re-analysis of the deposited data

How the results depend on the processing

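Of the members, 3 were higher and 2 lower. At a fold change of 1.5 in place of 1.2, 1 member was higher (*Sdc3*) and 0 were lower, and among the genes of the 7 pathway lists 7 were higher and 2 lower in place of 13 and 5. With BMP7 library 1 alone against Ctrl, 2 members were higher (*Sdc1* and *Sdc3*) and 1 lower (*Sdc4*), where 8.36% of all genes tested in that fit were called. Leaving out each library in turn gave 2 to 3 higher and 1 to 2 lower members (*Gpc1* lost without Ctrl library 2 or BMP7 library 3), and 12 to 15 higher and 4 to 5 lower genes of the 7 pathway lists, where 8.10% to 12.2% of all genes tested were called. In CPM without the exon length *Sdc3* ranked 3 in Ctrl and 1 with BMP7, in place of 4 and 3. Among the 9 named but uncalled members and pathway genes refitted, the signs of 3 turned over, for *Gpc3* with BMP7 library 1 alone (0.052), for *Ext1* without Ctrl library 1 (-0.00074, within -0.00074 to 0.089 over the fits without 1 library) and for *Ext2* without BMP7 library 3 (0.00084, within -0.028 to 0.00084) and with BMP7 library 1 alone (0.0036). DESeq2 and the other scalings and filters kept the calls of all 5 called members. No paired analysis was possible because the numbers of the BMP7 columns are not those of the labels. The causes were not tested. For *Gpc2* and *Gpc3* depth limits what can be said.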

Other observations

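Syndecans can also carry chondroitin sulfate, whose chains start from the same linker. Of 12 tested genes of chondroitin sulfate synthesis 2 were higher and 1 lower with BMP7 (25%, beside 11.4% of all genes tested). This list, too, was chosen with earlier results of these data known. *Chst11*, the gene of a 4-O-sulfotransferase, was measured at 111, 103 and 117 CPM in Ctrl and 163, 189 and 171 CPM in BMP7 libraries 1, 3 and 4 (log2 fold change 0.66, adjusted p = 4.66e-06, edgeR). *Chst3*, a 6-O-sulfotransferase gene at 4.84 to 8.26 CPM over all libraries, rose by 0.54 (adjusted p = 0.0181, edgeR), and the call was lost without Ctrl library 3, BMP7 library 3 or BMP7 library 4. *Csgalnact1*, the gene of an enzyme that adds the first sugar of the chondroitin chain, fell by 0.56 on the log2 scale (adjusted p = 0.000236, edgeR), from 28.1 to 30.4 CPM in Ctrl to 18.4 to 20.7 CPM with BMP7. The other chain-starting gene, *Csgalnact2*, had a log2 fold change of 0.09.

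The matrilin genes are known as neighbours of the syndecan genes. Of the 4, only *Matn2* passed the expression filter, with 22.1 to 29.5 CPM in Ctrl and 30.5 to 33.4 CPM with BMP7. Its log2 fold change of 0.30 had an adjusted p of 0.0535 (edgeR), and without Ctrl library 1 or BMP7 library 4, with RLE size factors, or with no filter on low counts it was past the thresholds.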
